A study of Mus musculus with 2 samples.

Results

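Aquaporins are membrane channels that let water, and in some members glycerol and other small uncharged solutes, pass down their gradients. The genes described here are the 9 aquaporin genes Aqp1, Aqp2, Aqp3, Aqp4, Aqp5, Aqp7, Aqp8, Aqp9 and Aqp11, picked by symbol from a table of 54532 mouse genes, each standing on 1 line. The remaining family members in the table, Aqp6, Aqp12 and the lens gene Mip, serve as a comparison. Each genotype gave 1 sequencing library: one from Trappc9 knockout (KO) mice and one from wild-type (WT) mice, both 3 to 4 weeks old, both labelled adipose and with no drug or other treatment in their labels. Trappc9 encodes a subunit of the TRAPP vesicle-tethering complexes. The design text speaks of 3 mice per genotype whose abdominal fat was digested with collagenase; whether their RNA was pooled, and the strain and kind of knockout allele, are not given in the sources used here. The titles name stem cells of the fat, whereas the extraction text names frozen fat pads.

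The recovered depth was 14783728 fragments in the KO-labelled library and 13705193 in the WT-labelled library. At gene level Trappc9 itself was not lower, with 12.6 FPKM in the KO-labelled library and 9.94 FPKM in the WT-labelled library (ratio 1.27, 1.17 to 1.37), so libraries are called by their labels throughout. FPKM is a fragment count divided by gene length and library size. Comparisons between genes therefore depend on the gene length used, as given below for Aqp11 and Aqp9. With 1 library per genotype there was no replicate check and no test: intervals below are exact 95% intervals that cover counting error only, and "higher" or "lower" means that the interval of the KO over WT ratio left out 1. In RNA of mixed cells, fewer cells of a type and less RNA per cell cannot be told apart.

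Aquaporins are usually grouped by what they carry. Aqp1, Aqp2, Aqp4 and Aqp5 are water channels. Aqp3, Aqp7 and Aqp9 are aquaglyceroporins, which also pass glycerol. Aqp8 passes water and ammonia, and Aqp11 is a divergent member found on intracellular membranes. In fat, Aqp7 of adipocytes releases the glycerol set free by lipolysis, and Aqp1 lines the capillaries. In the male genital tract, Aqp9 sits on the apical face of epididymal principal cells, Aqp1 is strong in the efferent ducts, and Aqp7 is found in maturing sperm.

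Aquaporin subunits typically form their pore with a repeated short signature, the NPA box, and the members differ in how many such boxes their coding sequences hold. In the coding sequence such a box reads AACCCNGCN or AATCCNGCN in frame, and only the coding strand was searched. Of 21536 mouse coding sequences in GENCODE M21 (1 per gene, the longest), 7.38% held at least 1 such box and 0.710% at least 2. Aqp1, Aqp2, Aqp3, Aqp4, Aqp5, Aqp8 and Aqp9 held 2 each, Aqp11 held 1 and Aqp7 held 0, which says only that these letters are not in frame there. Between the boxes lay 113 codons in Aqp1, Aqp2, Aqp4 and Aqp5, 129 in the glycerol channels Aqp3 and Aqp9, and 115 in Aqp8. The boxes of the better-expressed members are shown with 9 bases on either side, the box in capitals, 5′ to 3′ on the coding strand, with GRCm38 (mm10) coordinates.
Aqp1, first box, chr6:55336707-55336733, + strand: gctcacctcAACCCTGCGgtcacactg
Aqp1, second box, chr6:55345828-55345854, + strand: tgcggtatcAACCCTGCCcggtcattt
Aqp9, first box, chr9:71132732-71132758, − strand: ggccacatcAACCCAGCGgtgtctttt
Aqp9, second box, chr9:71122841-71122867, − strand: tgtgccatgAACCCTGCTcgagacctc
Aqp11, its 1 box, chr7:97729044-97729070, − strand: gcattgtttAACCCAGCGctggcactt
All 5 stretches lie within 1 coding exon each.

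Aqp1 and Aqp9 made up most of the RNA of the 9 members. Aqp6, outside the 9 and left out of the sums below, was at 4.90 FPKM in the KO-labelled and 1.75 FPKM in the WT-labelled library. Summed over the 9 genes, the level was 104 FPKM in the KO-labelled library, of which these 2 genes held 93.6%, and 70.0 FPKM in the WT-labelled library, of which they held 91.3%. Aqp1 alone took 72.5% of the sum in the KO-labelled library and 61.6% in the WT-labelled library. Aqp9 took 21.1% in the KO-labelled library and 29.7% in the WT-labelled library. Of the 9, only Aqp1, Aqp9, Aqp11 and Aqp7 had a mean of at least 1 FPKM, the level from which a gene is called measured here. The other 5 members lay below it.

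**Figure D1:**
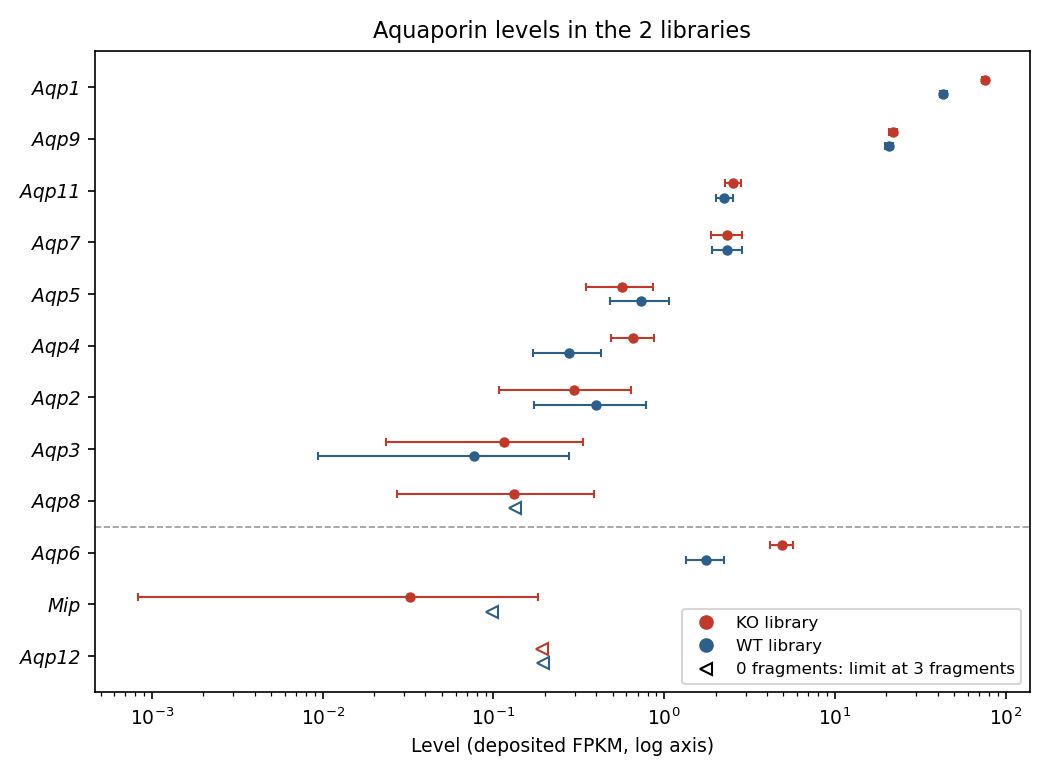
Level of each aquaporin gene (deposited FPKM, log axis) in the KO-labelled (red, upper) and WT-labelled (blue, lower) library, with exact 95% Poisson intervals from the recovered fragments; triangles mark the floor of 3 fragments where a library had 0, and genes under the dashed line are family members outside the 9. Aqp1, at 75.2 FPKM in the KO-labelled and 43.1 FPKM in the WT-labelled library, and Aqp9, at 21.9 FPKM in the KO-labelled and 20.8 FPKM in the WT-labelled library, stand apart from the others.

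Aqp1 was the member with the clearest difference. This channel (ENSMUSG00000004655, chromosome 6, 55336432 to 55348555) stood at 75.2 FPKM in the KO-labelled library (2827 fragments, interval 72.5 to 78.1 FPKM) and at 43.1 FPKM in the WT-labelled library (1605 fragments, interval 41.0 to 45.3 FPKM). The intervals do not overlap. The KO over WT ratio was 1.74 (1.64 to 1.86). After adding a pseudocount of 1 FPKM to both values, which understates the change of low genes, its log2 ratio was 0.79. That is short of 2-fold, yet 98.4% of the 13084 measured protein-coding genes had a smaller log2 ratio. Aqp1 ranked above 97.4% of protein-coding genes by level in the KO-labelled library and above 95.5% in the WT-labelled library.

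Aqp9, the broad-solute channel of principal cells and liver, did not differ beyond counting error. Aqp9 (ENSMUSG00000032204, chromosome 9, 71110659 to 71168682) was at 21.9 FPKM in the KO-labelled library (1296 fragments) and at 20.8 FPKM in the WT-labelled library (1221 fragments). The ratio was 1.05 (0.971 to 1.14), a log2 ratio of 0.07. Its sign depended on scaling: after bringing both libraries to the same FPKM sum, as TPM does, the log2 ratio was −0.12 and the interval of the ratio lay below 1 (0.844 to 0.989). That rescaling moved the median of all measured genes by −0.17 on the log2 scale, and relative to the median Aqp9 was at 0.03, against 0.05 with the deposited scaling.

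Aqp7, the adipocyte glycerol channel, was low and level. Aqp7 (ENSMUSG00000028427, chromosome 4, 41033074 to 41048139) had 94 fragments in each library, which gave 2.32 FPKM in the KO-labelled and 2.35 FPKM in the WT-labelled library. The ratio was 0.990 (0.736 to 1.33), so a difference within that range was not detectable at this depth. By the deposited gene lengths, Aqp9 exceeded Aqp7 by 9.41-fold (7.63 to 11.7) in the KO-labelled library and by 8.87-fold (7.18 to 11.1) in the WT-labelled library. Aqp1 exceeded Aqp7 by 32.4-fold (26.4 to 40.2) in the KO-labelled library and by 18.4-fold (14.9 to 22.9) in the WT-labelled library.

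The 3 genes were then set against each other by the ratio of their KO over WT ratios, which is free of any scaling between libraries. Aqp1 over Aqp9 gave 1.66 (1.501 to 1.835) and Aqp1 over Aqp7 gave 1.76 (1.30 to 2.39), both intervals leaving out 1. Aqp9 over Aqp7 gave 1.06 (0.780 to 1.44), which holds 1. The difference of Aqp1 between these 2 libraries therefore exceeded that of Aqp9 and of Aqp7 beyond counting error, whereas Aqp9 and Aqp7 could not be told apart. These intervals compare 2 libraries and not the genotypes.

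Aqp11, a channel of the endoplasmic reticulum, was at 2.53 FPKM in the KO-labelled library (341 fragments) and at 2.25 FPKM in the WT-labelled library (300 fragments). Its ratio of 1.13 (0.961 to 1.32) held 1. The gene (chromosome 7, 97724006 to 97738289) has a table length of 9418 bases, the union of the exons of all its transcripts, among them intron-retaining ones, and its transcript with the longest coding sequence has 3737 bases. Aqp9 is affected as well, with 4143 bases in the table and 2643 in that transcript, and so is Aqp5, with 2599 and 1376 bases. Divided by these transcript lengths, a choice made after seeing the data, Aqp11 was at 6.38 FPKM in the KO-labelled and 5.67 FPKM in the WT-labelled library, and Aqp9 at 34.3 FPKM in the KO-labelled and 32.6 FPKM in the WT-labelled library. Aqp1 then exceeded Aqp9 by 2.19-fold in the KO-labelled and 1.32-fold in the WT-labelled library, against 3.44-fold (3.22 to 3.68) and 2.07-fold (1.92 to 2.24) by table length. Aqp9 exceeded Aqp7 by 13.2-fold (10.7 to 16.4) in the KO-labelled and 12.4-fold (10.1 to 15.5) in the WT-labelled library by transcript length. The shares of the aquaporin sum given above rest on table length.

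Aqp4, the water channel known from astrocytes and fast muscle, was the other member that was higher. Its level was 0.660 FPKM in the KO-labelled library (48 fragments) and 0.278 FPKM in the WT-labelled library (20 fragments), and the ratio was 2.38 (1.38 to 4.23). Because both values lie below the pseudocount, the log2 ratio was only 0.38. Skeletal muscle markers summed to 11.9 FPKM in the KO-labelled and 12.0 FPKM in the WT-labelled library, 2 of 5 measured, neither higher nor lower, and Myh4 at 0 in both. Schwann and glial markers summed to 4.67 FPKM in the KO-labelled and 4.17 FPKM in the WT-labelled library, 2 of 5 measured, with S100b higher. Below 1 FPKM by mean, Sox10 was lower, with 3 fragments in the KO-labelled and 13 in the WT-labelled library. The part of these cells in the Aqp4 difference was not tested. The gene's limits in the table differ from those in GENCODE M21, where its exons cover 6233 bases against 5082 here.

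The other 4 members had under 30 fragments in each library. Aqp5, a channel of secretory glands, had 21 fragments in the KO-labelled library and 27 in the WT-labelled library (0.565 FPKM in the KO-labelled and 0.733 FPKM in the WT-labelled library), with a ratio of 0.770 (0.414 to 1.41). By transcript length Aqp5 was at 1.07 FPKM in the KO-labelled and 1.39 FPKM in the WT-labelled library, above the level called measured. Aqp2, the vasopressin-regulated channel of the kidney collecting duct, had 6 fragments in the KO-labelled and 8 fragments in the WT-labelled library (0.296 FPKM in the KO-labelled and 0.398 FPKM in the WT-labelled library). Aqp3, a glycerol channel of basal epithelial cells and skin, had 3 fragments in the KO-labelled and 2 fragments in the WT-labelled library, a ratio of 1.49 (0.170 to 17.8). Aqp8 had 3 fragments in the KO-labelled library and 0 in the WT-labelled library, where the floor of 3 fragments is 0.134 FPKM and the exact 95% limit 0.165 FPKM. Differences in these genes were not detectable at this depth.

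**Figure D2:**
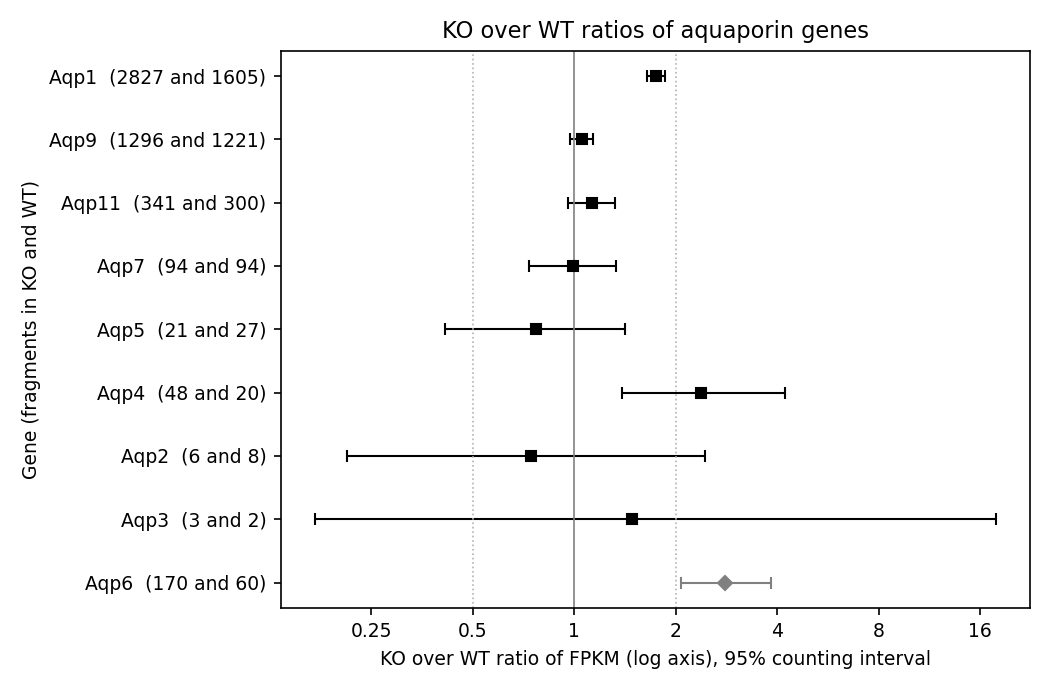
KO over WT ratio of FPKM (log axis) for aquaporin genes with fragments in both libraries, with exact 95% counting intervals; fragments are given beside each name, dotted lines mark 2-fold, and the grey diamond is Aqp6, outside the 9. The intervals of Aqp1 (1.64 to 1.86) and Aqp4 (1.38 to 4.23) lie above 1, and those of the other 6 members shown hold 1.

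In counts, 1 of the 4 measured members (Aqp1) was higher and 0 were lower, against 24.6% of measured protein-coding genes that were higher and 17.6% that were lower. Over all 9 members 2 were higher (Aqp1 and Aqp4) and 0 lower, against 19.6% and 15.0% of the 18274 protein-coding genes with at least 1 fragment. The shares of higher members are close to the background. With the pseudocount of 1 FPKM no member passed 2-fold, against 0.948% of measured genes upward and 0.290% downward. Aqp4, below 1 FPKM by mean, passed it by its plain ratio of 2.38 and, with a pseudocount of 0.1 FPKM, by a log2 ratio of 1.01. The median log2 ratio of the 4 measured members was 0.09, beside 0.02 for all measured genes. Aqp1 and Aqp4 remained higher when both libraries were brought to the same FPKM sum, with ratios of 1.52 and 2.07.

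By level the order in the KO-labelled library was Aqp1, Aqp9, Aqp11, Aqp7, Aqp4, Aqp5, Aqp2, Aqp8 and Aqp3. In the WT-labelled library it was Aqp1, Aqp9, Aqp7, Aqp11, Aqp5, Aqp2, Aqp4, Aqp3 and Aqp8. In each library 3 of the 8 neighbouring pairs differed beyond counting error: Aqp1 from Aqp9, Aqp9 from the gene after it, and the fourth gene from the fifth. Aqp11 and Aqp7 were not separated by table length (1.09-fold, 0.865 to 1.38, in the KO-labelled library), but by transcript length Aqp11 exceeded Aqp7 by 2.45-fold (1.95 to 3.12) in the KO-labelled and 2.16-fold (1.71 to 2.75) in the WT-labelled library.

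Markers of cells known to carry Aqp1 were read beside it. All 13 blood endothelial markers were measured, 8 of them higher and 1 lower (Tek), with summed levels of 117 FPKM in the KO-labelled and 101 FPKM in the WT-labelled library and a median log2 ratio of 0.18. The tight junction gene Cldn5 was at 23.5 FPKM in the KO-labelled and 18.5 FPKM in the WT-labelled library, and the fenestral diaphragm gene Plvap at 19.1 FPKM in the KO-labelled and 16.8 FPKM in the WT-labelled library. The ratio of Aqp1 lay above those of 12 of the 13, though its interval overlapped that of Flt1 (1.65, 1.46 to 1.88). The exception was Sox17, an endothelial transcription factor, at 3.84 FPKM in the KO-labelled and 1.83 FPKM in the WT-labelled library, with a ratio of 2.09 (1.68 to 2.61); only with the pseudocount and the deposited scaling did its log2 ratio of 0.77 fall below that of Aqp1. After rescaling to the same FPKM sum 2 of the 13 were higher and 3 lower, against 1031 higher and 6337 lower of all 13084 measured genes. The list median less the all-gene median was 0.14 after rescaling, against 0.16 with the deposited scaling. None of these markers was at 0.

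Other Aqp1-bearing cells left different traces. Of 8 erythroid genes 5 were measured and 4 higher (1 after rescaling to the same FPKM sum). The erythroid median less the all-gene median was 0.27 after that rescaling, against 0.28 with the deposited scaling. These genes summed to 726 FPKM in the KO-labelled and 608 FPKM in the WT-labelled library, nearly all of it globin. The red cell anion exchanger gene Slc4a1 was at 0.086 FPKM in the KO-labelled and 0.274 FPKM in the WT-labelled library. Of 5 genes of multiciliated cells, which line the efferent ducts, 4 were measured and 2 were higher (Foxj1 at 23.5 FPKM in the KO-labelled and 15.0 FPKM in the WT-labelled library, and Ccno at 33.3 FPKM in the KO-labelled and 26.1 FPKM in the WT-labelled library), with sums of 60.8 FPKM in the KO-labelled and 44.5 FPKM in the WT-labelled library. Mesothelial markers went the other way, with 4 of 5 lower and sums of 52.4 FPKM in the KO-labelled and 62.6 FPKM in the WT-labelled library; Upk1b alone was higher (25.3 FPKM in the KO-labelled and 14.8 FPKM in the WT-labelled library). Of 8 pericyte and smooth muscle genes 3 were higher and 3 lower. The part of each cell type in the Aqp1 difference was not tested.

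Genes known from the epididymal epithelium were abundant in both libraries, although the labels say adipose. All 13 epididymal genes were measured, summing to 27562 FPKM in the KO-labelled and 19956 FPKM in the WT-labelled library, and 12 were higher with a median log2 ratio of 0.55, led in level by the glutathione peroxidase Gpx5 (11686 FPKM in the KO-labelled and 10039 FPKM in the WT-labelled library). That list was chosen with earlier results of these samples known. Aqp9 did not follow it: its log2 ratio of 0.07 was above that of only 1 of the 13. General epithelial genes, such as the keratin gene Krt8 (258 FPKM in the KO-labelled and 246 FPKM in the WT-labelled library), had a median log2 ratio of 0.02, with 4 of 8 higher and 2 lower, or 0 and 6 after rescaling to the same FPKM sum. The clear cell list had 3 of 4 higher (1 higher and 1 lower after rescaling to the same FPKM sum). In it the proton pump gene Atp6v0d2 was at 17.8 FPKM in the KO-labelled and 8.19 FPKM in the WT-labelled library. The rescaling left 1031 higher and 6337 lower of all 13084 measured genes. Less the all-gene median, the general epithelial median was −0.02 after rescaling, against −0.0005 with the deposited scaling. For the clear cell list this value was 0.27 after rescaling, against 0.28. Basal cell genes had 2 of 4 lower, with Krt5 at 43.1 FPKM in the KO-labelled and 49.1 FPKM in the WT-labelled library.

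Aqp9 is also known from liver, neutrophils and macrophages. Hepatocyte genes summed to 6.38 FPKM in the KO-labelled and 9.54 FPKM in the WT-labelled library, 2 of 7 measured. Most of these sums was Cyp2e1, at 5.09 FPKM in the KO-labelled and 6.22 FPKM in the WT-labelled library, not beyond counting error. Albumin, Alb, was lower, at 0.448 FPKM in the KO-labelled and 1.69 FPKM in the WT-labelled library. Of 8 neutrophil genes 2 were measured. Elane was at 0 in both libraries, Camp at 0 in the KO-labelled and Ly6g at 0 in the WT-labelled library. Ltf, a secretory gene also made by epithelia, was higher. It held 21.8 of a summed 24.1 FPKM in the KO-labelled and 4.26 of 9.24 FPKM in the WT-labelled library. The other measured gene, S100a9, had 11 fragments in the KO-labelled and 22 in the WT-labelled library, a ratio of 0.495 (0.217 to 1.07). Below 1 FPKM by mean, Csf3r was lower, with 23 fragments in the KO-labelled and 45 in the WT-labelled library (0.506, 0.292 to 0.854). The intervals of S100a8 and Mpo held 1. Macrophage genes were all measured, with 0 of 7 higher and 2 lower (6 lower after rescaling to the same FPKM sum). Their sums were 151 FPKM in the KO-labelled and 162 FPKM in the WT-labelled library. The macrophage median less the all-gene median was −0.09 after rescaling, against −0.07 with the deposited scaling.

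For Aqp7, markers of adipocytes and of spermatids were read. Mature adipocyte markers summed to 81.9 FPKM in the KO-labelled and 94.95 FPKM in the WT-labelled library; 9 of 13 were measured, 2 higher and 3 lower, with a median log2 ratio of −0.18. The list's highest genes, the lipase gene Pnpla2 (31.0 FPKM in the KO-labelled and 27.4 FPKM in the WT-labelled library) and the fatty acid binding gene Fabp4 (27.04 FPKM in the KO-labelled and 25.1 FPKM in the WT-labelled library), were the higher ones. After rescaling to the same FPKM sum 0 were higher and 5 lower, while the list median less the all-gene median was −0.20 under both scalings. With the deposited scaling the lower ones were Car3, Plin1 and the adipokine gene Adipoq. Car3, with the lowest log2 ratio of the list (−1.53), was at 5.76 FPKM in the KO-labelled and 18.5 FPKM in the WT-labelled library. Adipoq was at 0.506 FPKM in the KO-labelled and 2.30 FPKM in the WT-labelled library. Below 1 FPKM by mean, Retn was also lower, at 0.221 FPKM in the KO-labelled and 1.03 FPKM in the WT-labelled library. Lep was at 0.083 FPKM in the KO-labelled and 0.063 FPKM in the WT-labelled library. Adipose progenitor genes, 7 of 7 measured, had 4 lower and 2 higher. Spermatid genes summed to 140 FPKM in the KO-labelled and 31.5 FPKM in the WT-labelled library, with all 5 measured genes of 6 higher, among them the protamine gene Prm2 (54.1 FPKM in the KO-labelled and 5.21 FPKM in the WT-labelled library). The remaining gene, Acrv1, below 1 FPKM by mean, was lower. It had 10 fragments in the KO-labelled and 22 in the WT-labelled library, a ratio of 0.450 (0.190 to 0.991). The log2 ratio of Aqp7, −0.01, lay between the medians of the adipocyte list and of the spermatid list, which was 1.71, and the part of either cell type in its level was not tested.

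**Figure D3:**
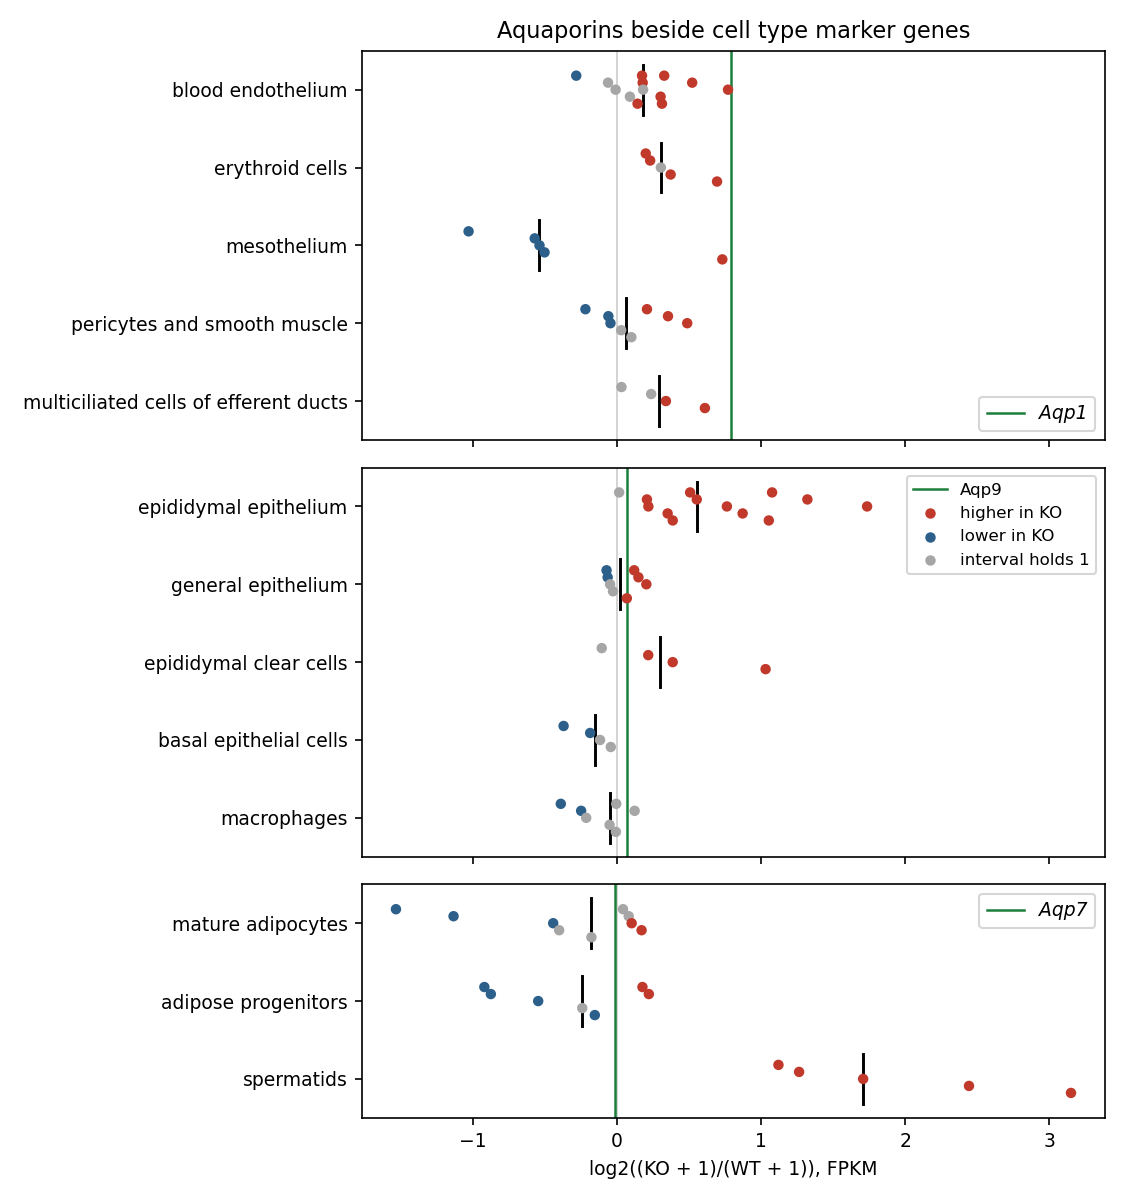
Log2((KO + 1)/(WT + 1)) of measured marker genes of cell types read beside Aqp1 (top), Aqp9 (middle) and Aqp7 (bottom), not all of them known to carry it. Each point is a gene, coloured by whether its counting interval left out a ratio of 1. Black bars are list medians and green lines the aquaporin. Aqp1, at 0.79, lies right of 12 of 13 endothelial markers and, only because of the added 1 FPKM, of Sox17 (0.77), Aqp9, at 0.07, left of 12 of 13 epididymal genes, and Aqp7, at −0.01, between the adipocyte and spermatid medians (−0.18 and 1.71).

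Genes that handle the glycerol carried by Aqp7 and Aqp9 differed little. Of 18 genes of lipolysis and glycerol handling 16 were measured, 5 higher and 2 lower, with a median log2 ratio of 0.05 beside 0.02 for all measured genes. Gk, the glycerol kinase, was at 31.2 FPKM in the KO-labelled and 27.1 FPKM in the WT-labelled library, the lipase genes Mgll at 46.8 FPKM in the KO-labelled and 43.7 FPKM in the WT-labelled library and Pnpla2 at 31.0 FPKM in the KO-labelled and 27.4 FPKM in the WT-labelled library, and the glycerol-3-phosphate dehydrogenase Gpd1 at 28.1 FPKM in the KO-labelled and 26.9 FPKM in the WT-labelled library, the last not beyond counting error. The largest log2 ratios were those of Dgat2, a triglyceride synthase (13.0 FPKM in the KO-labelled and 8.27 FPKM in the WT-labelled library, 0.60), and of the lipid droplet gene Plin1 (1.11 FPKM in the KO-labelled and 1.87 FPKM in the WT-labelled library, −0.44). After rescaling to the same FPKM sum 1 was higher and 8 lower, against 1031 higher and 6337 lower of all 13084 measured genes. The list median less the all-gene median was 0.03 under both scalings.

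Among 18 genes of the ion transport that draws water across epithelia, 16 were measured, 8 higher and 1 lower (the chloride channel gene Ano1), with a median log2 ratio of 0.12; after rescaling to the same FPKM sum 3 were higher and 5 lower, while the list median less the all-gene median was 0.09, against 0.10 with the deposited scaling. Cftr, the cAMP-gated chloride and bicarbonate channel, was at 5.85 FPKM in the KO-labelled and 3.10 FPKM in the WT-labelled library, a ratio of 1.89 (1.65 to 2.16). Slc9a2, a sodium-proton exchanger, was at 6.33 FPKM in the KO-labelled and 3.75 FPKM in the WT-labelled library, a ratio of 1.69 (1.48 to 1.92). The scaffold gene Slc9a3r1, at 64.8 FPKM in the KO-labelled and 65.5 FPKM in the WT-labelled library, did not differ beyond counting error.

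Among 11 genes of urea and monocarboxylate handling, solutes that Aqp9 can carry, 5 were measured, 2 higher and 0 lower. The urea transporter Slc14a2 was at 2.75 FPKM in the KO-labelled and 1.43 FPKM in the WT-labelled library, a ratio of 1.92 (1.41 to 2.63), and the lactate transporter Slc16a3 at 3.50 FPKM in the KO-labelled and 2.66 FPKM in the WT-labelled library. Slc16a1 (13.2 FPKM in the KO-labelled and 13.8 FPKM in the WT-labelled library) and its chaperone Bsg (257 FPKM in the KO-labelled and 256 FPKM in the WT-labelled library) did not differ beyond counting error. Of 12 genes of the osmotic stress response 11 were measured, 3 higher and 2 lower, with a median log2 ratio of −0.02. After rescaling to the same FPKM sum 2 were higher and 7 lower. The list median less the all-gene median was then −0.06, against −0.04 with the deposited scaling. The osmolyte and amino acid carriers Slc38a2 (26.9 FPKM in the KO-labelled and 21.6 FPKM in the WT-labelled library), Slc5a3 (16.1 FPKM in the KO-labelled and 13.6 FPKM in the WT-labelled library) and Slc6a6 (9.42 FPKM in the KO-labelled and 7.49 FPKM in the WT-labelled library) were the higher ones, and Nfat5, the transcription factor of this response, was at 12.9 FPKM in the KO-labelled and 12.6 FPKM in the WT-labelled library. By plain ratio, Cftr (1.89) and Slc14a2 (1.92) exceeded Aqp1 (1.74), although with the pseudocount their log2 ratios of 0.74 and 0.62 lay below its 0.79.

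**Figure D4:**
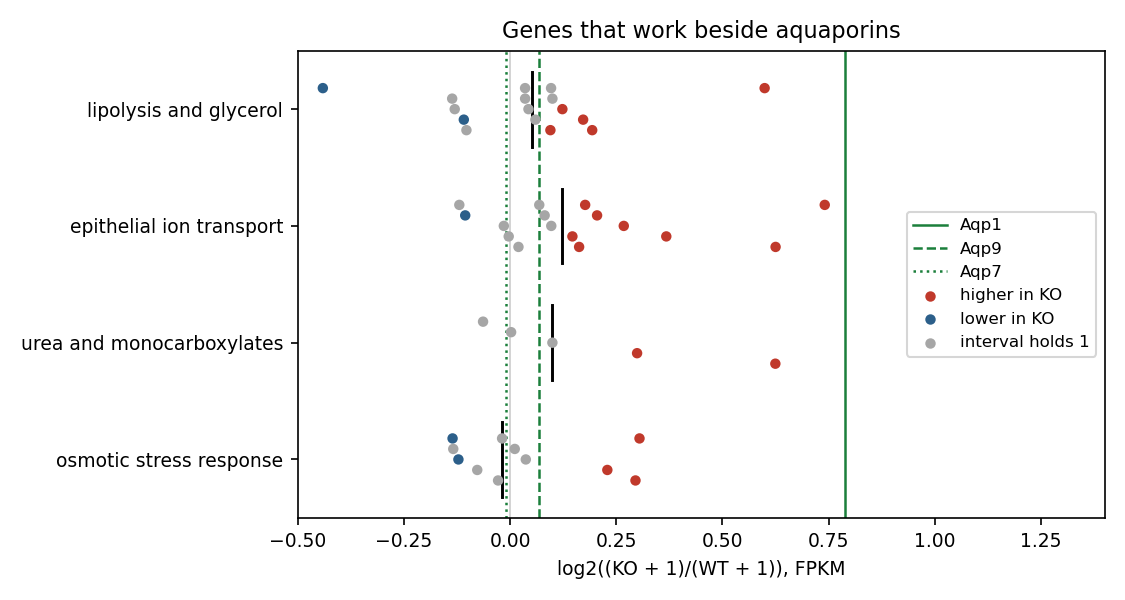
Log2((KO + 1)/(WT + 1)) of measured genes in 4 lists of partners of aquaporins; each point is a gene, coloured by whether its counting interval left out a ratio of 1, black bars are list medians and green lines mark Aqp1, Aqp9 and Aqp7. All points lie left of Aqp1, at 0.79, for Cftr and Slc14a2 only because of the added 1 FPKM, and the medians lie between −0.02 and 0.12.

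Of the family members outside the 9, Aqp6 had the largest difference. Aqp6, an anion-permeable channel of intracellular vesicles in kidney intercalated cells, was at 4.90 FPKM in the KO-labelled library (170 fragments) and at 1.75 FPKM in the WT-labelled library (60 fragments). The ratio was 2.81 (2.08 to 3.83) and the log2 ratio 1.10, past 2-fold. The interval lay above that of Aqp5, its neighbour on chromosome 15, and overlapped that of Aqp2: Aqp5 ends 6570 bases before Aqp6 begins and Aqp2 lies a further 6234 bases away from Aqp5, with ratios of 0.770 (0.414 to 1.41) for Aqp5 and 0.743 (0.212 to 2.44) for Aqp2. Mip had 1 fragment in the KO-labelled library and 0 in the WT-labelled library, and Aqp12, a gene of the pancreatic acinus, had 0 fragments in each library. For Aqp12 the floor of 3 fragments was 0.193 FPKM in the KO-labelled and 0.195 FPKM in the WT-labelled library. Kidney markers summed to 2.07 FPKM in the KO-labelled and 0.756 FPKM in the WT-labelled library, with Slc12a1 and Nphs1 at 0 in both. The 1 measured kidney gene, Umod, was higher, at 1.82 FPKM in the KO-labelled and 0.690 FPKM in the WT-labelled library, and so was Slc34a1, with 11 fragments in the KO-labelled and 1 in the WT-labelled library. The part of kidney cells in the Aqp6 difference was not tested. Pancreatic acinar markers summed to 0 FPKM in the KO-labelled and 0.121 FPKM in the WT-labelled library.

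Genes flanking the members on the chromosome were compared too. Of 10 measured protein-coding neighbours that are not aquaporins, 5 were higher, 0 were lower and 5 were undecided. The background shares over the 13084 measured genes were 24.6% for higher calls and 17.6% for lower calls. Ratios of the 5 higher neighbours ran from 1.18 (Nfx1) to 3.85 (Lipc). Neighbour calls were not repeated after rescaling to the same FPKM sum, which took the background's higher calls from 3220 to 1031. Next to Aqp1, Mindy4 was at 3.01 FPKM in both libraries. On its other side Ghrhr, below 1 FPKM by mean, was higher, at 0.622 FPKM in the KO-labelled and 0.283 FPKM in the WT-labelled library (2.19, 1.13 to 4.46). Beside Aqp8, Zkscan2, also below 1 FPKM by mean, was lower, with a ratio of 0.655 (0.435 to 0.978). Next to Aqp9, the hepatic lipase gene Lipc, 158432 bases away, was at 20.1 FPKM in the KO-labelled and 5.22 FPKM in the WT-labelled library, a ratio of 3.85 (3.23 to 4.61), while Aldh1a2 on the other side, a retinoic acid synthase, was at 16.3 FPKM in the KO-labelled and 17.5 FPKM in the WT-labelled library. Nfx1 beside Aqp7 was at 13.4 FPKM in the KO-labelled and 11.4 FPKM in the WT-labelled library. No exon of a member overlaps an exon of another gene in GENCODE M21, although the antisense gene Gm32511 overlaps Aqp9 and was at 2.13 FPKM in the KO-labelled and 1.01 FPKM in the WT-labelled library.

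The protein-coding genes closest to the aquaporins in both libraries at once were sought by distance on the log2(FPKM + 1) scale, over 2 libraries, as a description. Closest to Aqp1 were Spink10 (74.9 FPKM in the KO-labelled and 45.0 FPKM in the WT-labelled library), Prnp (79.5 FPKM in the KO-labelled and 43.2 FPKM in the WT-labelled library) and Inmt (74.8 FPKM in the KO-labelled and 45.7 FPKM in the WT-labelled library), the 3 genes within a distance of 0.1. Inmt ends 161388 bases from the start of Aqp1 on chromosome 6. Within the same distance of Aqp9 lay 144 genes, the closest being Wls, Creb3 and Tox3, and of Aqp7 151 genes, the closest being Dpp7, Mrps30 and Limk1.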

How the data were processed

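RNA of 1 KO and 1 WT library was made into libraries from 1 µg of total RNA with an Illumina TruSeq kit, per the labels' protocols. The authors deposited 1 FPKM value per gene and library; per the submitters' processing notes, tools and builds included HISAT2 2.0.5, hg38 and mm10. Sources used here name no counting program. Multiplying each value by its gene's length and dividing by a library-specific unit returned fragments that were whole (within 0.01) in 100% of cases. The deposited denominators had a KO over WT ratio of 1.01, against 1.08 for fragment totals, and were kept. Ratios carry exact Clopper-Pearson and levels exact Poisson intervals (scipy 1.17.1, Python 3.11.15), counting error only, and no molecular identifiers are described. A floor of 3 fragments was used for values of 0. Of repeated symbols (105 lines) the higher line was used. Simulated data were used to check the scripts. The library preparation is not stated to keep strand, so antisense reads cannot be told apart. Named genes were the 9 members, the other family genes, Trappc9, in each pathway list the 4 highest by mean and the 2 with the largest log2 ratio, in each marker list the 2 highest, and the 3 nearest in pattern; others (Tek, Sox17, Slc4a1, Adipoq, Lep, Elane, Camp, Ly6g, Myh4, Ano1, Nfat5 and all chromosomal neighbours among them) were named after their values were seen. Results of some list genes are not reported here. Members and lists were chosen with earlier results of these data known. Lists share genes: Plin1, Lipe, Pnpla2 and Pck1 are in both the lipolysis and the adipocyte lists. Alternatives were other pseudocounts, FPKM filters and scalings, and, added after seeing the data, transcript length and list counts under each scaling.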

Additional observations from a re-analysis of the deposited data

How the results depend on the processing

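No paired analysis was possible because each genotype had 1 library. Aqp1 stayed higher in every alternative run: its log2 ratio was 0.59 after rescaling to the same FPKM sum and 0.70 after scaling by fragment totals. Aqp9 was at −0.12 after the first rescaling, where it became the 1 aquaporin counted lower, and at −0.02 after the second; Aqp11 also turned to −0.02 after the first, undecided throughout. Aqp7 stayed undecided in all. The number of measured aquaporins was 7 with a minimum mean of 0.1 FPKM and 2 with one of 5 FPKM. Over all genes, with pseudocounts of 0.1 and 5 FPKM, 208 and 66 were past 2-fold higher and 130 and 2 lower. Past 2-fold lower were 84 after rescaling to the same FPKM sum and 19 with a minimum mean of 5 FPKM. By the counting interval, 1031 genes were higher and 6337 lower after rescaling to the same sum, and 1900 and 3969 after scaling by totals; with the 5 FPKM minimum 1350 were lower. These scalings moved the median of all genes by −0.17 and −0.08. Depth limits Aqp2, Aqp3, Aqp5 and Aqp8, each with under 30 fragments a library, and no alternative replaces biological replicates.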

Other observations

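The epididymal genes, the most abundant of the lists read here, held 4.09% of all fragments in the KO-labelled and 3.30% in the WT-labelled library, while the mature adipocyte list held 0.0279% in the KO-labelled and 0.0328% in the WT-labelled library. The pseudogene Aqp10-ps had 11 fragments in the KO-labelled library and 4 in the WT-labelled library. Racgap1, a cytokinesis gene 15018 bases from Aqp6, was at 2.84 FPKM in the KO-labelled and 5.22 FPKM in the WT-labelled library, a ratio of 0.545 (0.471 to 0.631), opposite in direction to Aqp6. The beta subunit gene of the epithelial sodium channel, Scnn1b, below 1 FPKM by mean, was at 0.903 FPKM in the KO-labelled and 0.349 FPKM in the WT-labelled library, a ratio of 2.59 (1.33 to 5.35), and the betaine carrier gene Slc6a12 at 1.10 FPKM in the KO-labelled and 0.370 FPKM in the WT-labelled library, a ratio of 2.97 (1.66 to 5.60). These genes were picked after their values were seen.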
